A study of Saccharomyces cerevisiae with 8 samples.

Results

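The genes described here encode proteins of the mitochondrial ribosome of Saccharomyces cerevisiae. Members were the protein-coding transcripts of the deposited annotation whose standard symbol is MRPL, MRPS, RSM or MRP followed by a number, except MRP8. The rule found 62 genes among 6030 transcripts, 35 for the large and 27 for the small subunit. MRPL10, MRPL19, MRP13 and MRP35 have symbols of the same form and were not analysed here. All 62 members passed the filter on low counts, as did 5746 transcripts in all, and a member had between 63 and 3248 reads in a library (median 547).

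The study measured newly made RNA in 4 strains of budding yeast, with 2 libraries each. Those named med7-1002, med21-1002 and med10-1002 each carry that allele of a subunit of Mediator, the complex that links transcription factors to RNA polymerase II, and the parent carries none of the 3 alleles. All 4 strains share mutant alleles of HIS3 (his3-11,15), TRP1 (trp1-1), LEU2, URA3 (ura3) and an ADE gene (ade-), the resistance markers cyh2r and can1-100, and hsp82- DHSE-lacZ, and all are labelled MATa. Cells were grown in rich medium (YPD) at 30 °C to an OD600 of 0.8 and given 5 mM 4-thiouracil, a uracil analogue that enters RNA as it is made, for 6 min. Labelled RNA was then purified, and libraries were made from 100 ng of RNA. Nothing in the labels says that the 2 libraries of a strain came from separate cultures or transformants, so the p-values measure the spread between libraries, which may be technical. Each mutant is represented by 1 named strain, so a result for a mutant is a result for that strain.

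The libraries held 10962170 to 23629303 reads assigned to transcripts, and another 32.7% to 49.5% of each library's total fell outside every annotated feature, with the highest share in replicate 1 of med7-1002. Spike-in RNAs were added before lysis but were not analysed here, so each value is relative to the rest of its library. STE2, the receptor gene expressed in a cells, had 288 and 413 CPM (the reads of a transcript scaled to the library's size) in med7-1002, 13.3 and 12.2 CPM in med21-1002, 58.3 and 56.9 CPM in med10-1002, and 20.2 and 19.7 CPM in parent. STE3, the receptor gene expressed in alpha cells, had 2.11 and 0 CPM in med7-1002, 368 and 316 CPM in med21-1002, 312 and 287 CPM in med10-1002, and 390.0 and 344 CPM in parent. The med7-1002 libraries therefore showed the pattern of a cells, and the other 3 strains showed that of alpha cells, against their labels. Differences between med7-1002 and the other strains cannot be told apart from differences in mating type. The labels also give the libraries of med7-1002 and med10-1002 the same pair of barcodes.

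The mitochondrial ribosome translates the few messenger RNAs made from mitochondrial DNA, which encode mainly subunits of the respiratory chain and of ATP synthase. Its ribosomal RNAs come from mitochondrial DNA, whereas nearly all of its proteins are encoded in the nucleus, made in the cytosol and imported. Many of these proteins have counterparts in bacterial ribosomes, and others are found only in mitochondria. Puf3, an RNA-binding protein, binds a short element in the 3′ untranslated region (3′ UTR) of many of their messenger RNAs and governs their stability and translation. In Candida albicans the element AATTTT stands upstream of both cytosolic and mitochondrial ribosomal protein genes, and in the lineage of Saccharomyces cerevisiae it has been lost upstream of many mitochondrial ones.

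Of the sequence motifs searched, the one that members shared most widely was the Puf3 element in their 3′ UTR. The letters TGTANATA, on the transcribed strand, stood in the annotated 3′ UTR of 60 of 62 members (96.8%), against 3 of 135 cytosolic ribosomal protein genes (2.22%) and 705 of 4842 coding transcripts in all (14.6%). RSM22 and MRPS16 were the members without a match. Of the 60, 50 had 1 match, 9 had 2 and RSM19 had 3. The matches lay between 8 and 139 bases after the stop codon, with a median of 54. C stood in position −2 before the T in 48 of 71 member matches (67.6%), against 178 of 696 in other coding transcripts (25.6%), and Puf3 is known to prefer C in that place. The following stretches of at most 30 bases, read from the R64 genome, show the match in capitals for members whose values are described below.
MRPS12, chrXIV:694269-694298, minus strand: atacaacctttTGTAAATAgcaatgaccat
MRPL8, chrX:315714-315743, minus strand: gtgtattccctTGTAAATAtatagatgaca
MRPL9, chrVII:936023-936052, minus strand: tactacaatcaTGTACATAcatcaataata
MRPL11, chrIV:99267-99296, plus strand: ctattcaatcaTGTACATAcatcatcaaaa
MRP20, chrIV:1278499-1278528, plus strand: cccctcacactTGTATATAcggagcaaact
MRPL22, chrXIV:303532-303561, minus strand: tattgtgattcTGTAAATAacaactagttt
MRP51, chrXVI:327697-327726, plus strand: attcagagttcTGTAAATAaataaagaaaa
MRPS17, chrXIII:636217-636246, minus strand: gcactacactcTGTAAATAtatacaactac
The sites of MRPL9 and MRPL11, on different chromosomes, shared a run of 19 bases, caatcaTGTACATAcatca. Over all 71 member matches, the base at N was A in 33, T in 21, C in 16 and G in 1.

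**Figure D1:**
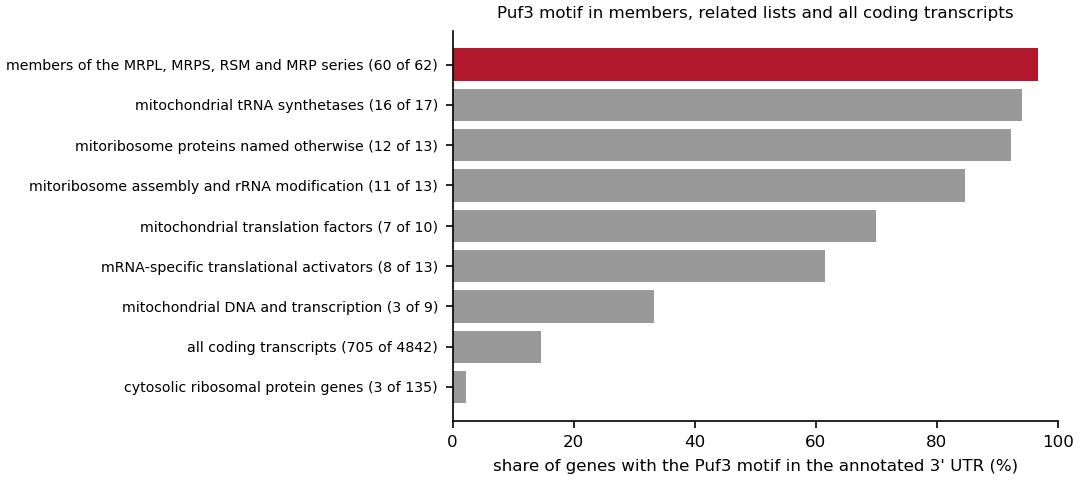
Share of genes with the Puf3 element in the annotated 3′ UTR, in percent, for the members (red) and for lists of related genes, all coding transcripts and cytosolic ribosomal protein genes (grey), with counts in the row names. The members stand at 96.8%, all coding transcripts at 14.6% and cytosolic ribosomal protein genes at 2.22%.

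The same letters stood in the 3′ UTR of 16 of 17 genes for mitochondrial tRNA synthetases and related amidotransferase subunits (94.1%) and of 12 of 13 mitochondrial ribosomal protein genes named otherwise (92.3%). They stood in 11 of 13 genes for assembly of that ribosome and modification of its RNA (84.6%) and in 7 of 10 genes listed with mitochondrial translation factors (70.0%). In genes for activators of single mitochondrial messages, 8 of 13 held a match (61.5%), and in genes for mitochondrial DNA and transcription 3 of 9 did (33.3%). A match of these letters is a description of sequence and says nothing of binding in these cells.

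No upstream motif of those searched was as widespread among members. AATTTT, on either strand between 250 bases before and 50 after the annotated transcript start, was found at 23 of 62 members (37.1%), against 71 of 135 cytosolic ribosomal protein genes (52.6%) and 2676 of 4842 coding transcripts (55.3%). The longer AAAATTTT, which overlaps that motif, was found at 3 members (4.84%), against 5.93% of cytosolic ribosomal protein genes and 11.0% of coding transcripts. GATGAG stood at 19.4% of members and 20.7% of coding transcripts, and CCAAT, the core of the site bound by the Hap complex, at 38.7% of members and 42.5% of coding transcripts. The 200 bases before the start are shown for MRP20, the 1 member lower in med7-1002 than in parent, at chrIV:1277393-1277592 on the plus strand, with its AATTTT in capitals, and for MRPS17, the member furthest apart between med21-1002 and med10-1002, at chrXIII:637079-637278 on the minus strand, with no match.
MRP20: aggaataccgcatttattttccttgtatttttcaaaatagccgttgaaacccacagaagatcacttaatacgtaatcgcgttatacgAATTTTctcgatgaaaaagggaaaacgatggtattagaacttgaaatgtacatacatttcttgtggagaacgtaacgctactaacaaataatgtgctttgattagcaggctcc
MRPS17: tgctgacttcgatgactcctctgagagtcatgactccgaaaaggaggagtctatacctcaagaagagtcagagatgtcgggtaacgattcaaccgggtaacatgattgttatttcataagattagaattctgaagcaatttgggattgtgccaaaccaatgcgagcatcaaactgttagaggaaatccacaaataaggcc

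Member transcripts were short and without introns, with MRPL44 the 1 exception. Their annotated length, from start to end with introns included, had a median of 819.5 nt, against 1440.5 nt for all coding transcripts. It was 937 nt for cytosolic ribosomal protein genes, of which 88 of 135 have an intron. The median protein was 234.5 residues long for members and 144 for cytosolic ribosomal protein genes. MRPL39 was the shortest at 397 nt and RSM22, which encodes a protein of the small subunit related to methyltransferases, the longest at 2031 nt. The members lay on 14 chromosomes. Only MRPS12 and RSM19 were next to each other, on chromosome XIV in the same direction with 108 nt between them. In all, 20 members overlapped an annotated transcript of the opposite strand. For MRPL38 and MRPL44 the overlap took 100% and 85.2% of the transcript. The sources used here do not say whether counting used strand. Reads set apart as ambiguous between transcripts numbered 37154 in replicate 1 of parent, beside 18409345 assigned reads. MRPL38 had 34.5 and 33.6 CPM (reads scaled to library size) per kilobase in parent. Counting without strand would have set such reads apart as ambiguous.

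In parent, members had a lower typical level per unit of length than all tested transcripts, noncoding ones included. Their median was 34.8 CPM per kilobase of annotated transcript in parent, against 45.8 for all tested transcripts and 152 for cytosolic ribosomal protein genes. MRPS9, a small-subunit protein of the bacterial S9 family, stood highest at 100.1 CPM per kb, followed by MRP51, a small-subunit protein that acts on the leaders of mitochondrial messages, at 90.7 CPM per kb. MRPL22, which lines the exit tunnel of the large subunit, came next at 78.5 CPM per kb. The lowest were MRP2, a small-subunit protein of the bacterial S14 family, at 10.9 ± 1.42 CPM per kb (SD, n = 2), MRPL39, a large-subunit protein of the L33 family, at 12.5 ± 0.328, and MRPL44, a protein found only in mitochondrial large subunits, at 13.9 ± 0.976. MRP2 ranged from 9.94 to 11.9 CPM per kb and MRPL39 from 12.3 to 12.8, so these neighbours in the order were separated by little more than the spread of MRP2. The order went with length. Across the 62 members, CPM per kb in parent and transcript length had a Spearman correlation of 0.73, a description of genes within the same libraries. Large-subunit members had a median of 32.4 CPM per kb in parent and small-subunit members 36.5.

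Across the strains the members' typical level was highest in med7-1002 and lowest in med10-1002. Their median was 48.5 CPM per kb in med7-1002, 41.8 in med21-1002, 27.3 in med10-1002 and 34.8 in parent. As a share of all assigned reads, members took 0.335% and 0.255% of the med7-1002 libraries, 0.255% and 0.304% of med21-1002, 0.196% and 0.212% of med10-1002, and 0.237% and 0.248% of parent. The 2 med10-1002 libraries were below every other library by this measure, and the med7-1002 and med21-1002 libraries overlapped.

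**Figure D2:**
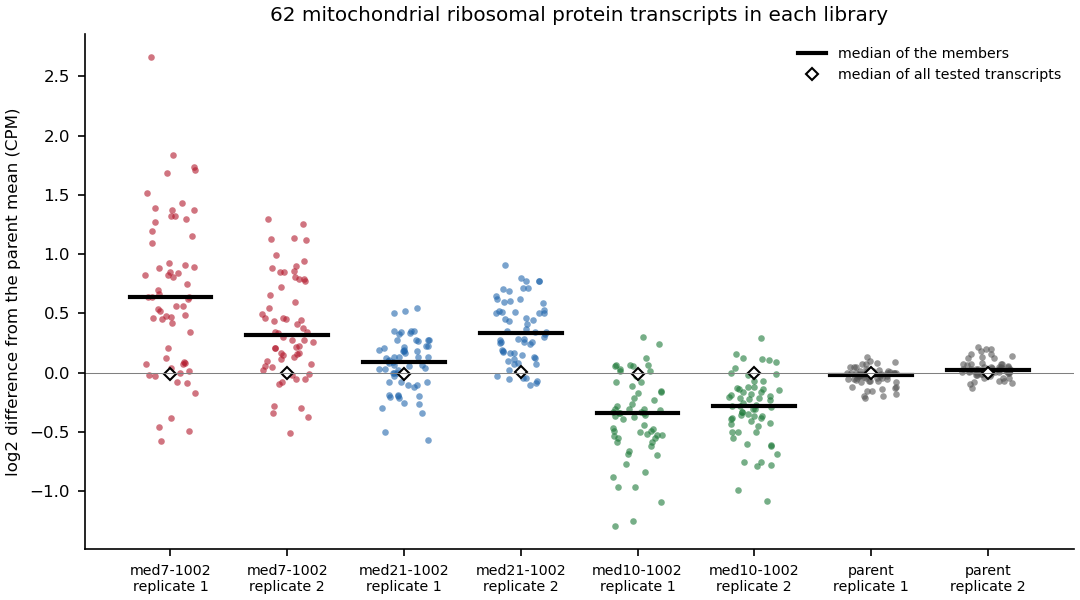
Log2 difference of each of the 62 members (points) from its mean in parent, in CPM, for each of the 8 libraries, with the median of the members (bar) and of all tested transcripts (diamond). Medians of the members are 0.63 and 0.32 for med7-1002, 0.09 and 0.33 for med21-1002 and −0.34 and −0.28 for med10-1002, while the medians of all transcripts stay near 0.

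In med7-1002, 27 of 62 members rose and 1 fell against parent (edgeR quasi-likelihood test over all tested transcripts, Benjamini-Hochberg adjusted p under 0.05), where 25.9% of all tested transcripts rose and 22.6% fell. The members' median log2 fold change was 0.44, against 0.02 for all transcripts. Both med7-1002 libraries lay above both parent libraries for 41 members and below them for 2, where 35.7% of all transcripts lay above and 35.9% below. Of the members that rose, 12 did so by more than 2-fold, as did 786 of all 5746 tested transcripts. Of the cytosolic ribosomal protein genes, 133 of 135 rose and none fell, with a median log2 fold change of 1.86.

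Among large-subunit members, 15 of 35 rose and 1 fell in med7-1002, with a median log2 fold change of 0.38. MRPL8, of the bacterial L17 family near the tunnel exit, had 42.0 and 50.9 CPM in med7-1002, against 22.7 and 24.2 CPM in parent, and rose by 0.99 ± 0.16 (log2, SE; edgeR adjusted p = 0.000872). MRPL9, of the L3 family that reaches toward the peptidyl transferase centre, had 63.7 and 74.1 CPM in med7-1002, against 40.9 and 41.0 CPM in parent, and rose by 0.75 ± 0.13 (edgeR adjusted p = 0.00127). In both genes the groups did not overlap, and the med7-1002 values were the highest of all 8 libraries. MRPL37, a large-subunit protein without a bacterial counterpart, had 23.3 and 15.5 CPM in med7-1002, against 7.55 and 6.67 CPM in parent, and rose by 1.44 ± 0.34 (edgeR adjusted p = 0.00717). The largest fold change was that of MRPL39, which had 31.5 and 7.03 CPM in med7-1002, against 4.89 and 5.07 CPM in parent, with a log2 fold change of 1.94 ± 0.60 (edgeR adjusted p = 0.0255). Replicate 1 of med7-1002 set that value, the other library lying only slightly above parent, and the adjusted p was 0.0817 when only these 2 groups were fitted.

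MRP20, of the L23 family at the tunnel exit where nascent chains meet the inner membrane, was the 1 member that fell. It had 45.8 and 53.9 CPM in med7-1002, against 63.0 and 74.3 CPM in parent, a log2 fold change of −0.46 ± 0.14 (edgeR adjusted p = 0.025). The groups did not overlap, but the parent libraries differed by more than the med7-1002 libraries did, and the adjusted p was 0.0822 with only these 2 groups fitted.

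Among small-subunit members, 12 of 27 rose in med7-1002 and none fell, with a median log2 fold change of 0.50. MRPS12, of the S12 family at the decoding centre, had 54.2 and 51.5 CPM in med7-1002, against 22.4 and 20.9 CPM in parent, and rose by 1.29 ± 0.20 (edgeR adjusted p = 0.000763). RSM7, of the S7 family in the head of the subunit, had 56.3 and 57.4 CPM in med7-1002, against 31.1 and 32.5 CPM in parent, and rose by 0.84 ± 0.13 (edgeR adjusted p = 0.000824). For these genes the 2 libraries of each group lay close together and far from the other group. MRP21, of the S21 family, had 41.0 and 28.1 CPM in med7-1002, against 11.6 and 14.0 CPM in parent, and rose by 1.43 ± 0.28 (edgeR adjusted p = 0.00291). MRP2 had 17.9 and 10.7 CPM in med7-1002, against 5.90 and 4.91 CPM in parent, and rose by 1.40 ± 0.40 (edgeR adjusted p = 0.0188). RSM19, the neighbour of MRPS12 and a member of the S19 family, had 15.5 and 15.4 CPM in med7-1002, against 5.63 and 7.00 CPM in parent, with a log2 fold change of 1.29 ± 0.34 (edgeR adjusted p = 0.0134). It was named here for its place beside MRPS12 and after its values were seen.

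Of 38 members with a counterpart in bacterial ribosomes, 21 rose (55.3%) and 1 fell in med7-1002, with a median log2 fold change of 0.69. Of the other 24, 6 rose and none fell, with a median of 0.31. Those 6 are 25.0% of the class, near the 25.9% of all tested transcripts that rose. The difference between these classes was not tested. By promoter, 10 of 23 members with AATTTT rose, with a median of 0.53, and 17 of 39 without it rose, with a median of 0.41. Of 643 other coding transcripts tested that had the Puf3 letters in their 3′ UTR, 196 rose (30.5%) and 133 fell (20.7%) in med7-1002, with a median of 0.11. Coding transcripts without the letters had nearly the same shares, as 30.2% rose and 22.9% fell, with a median of 0.06.

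**Figure D3:**
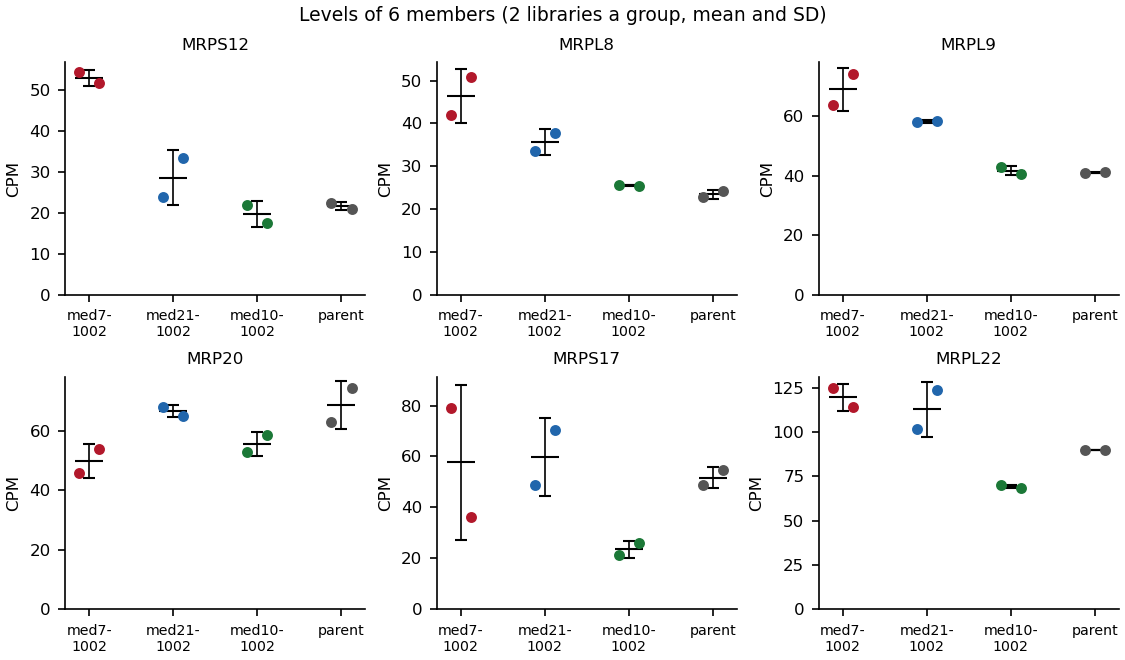
CPM of 6 members in the 4 groups, with a point for each of the 2 libraries, the mean as a bar and the SD as whiskers; each axis starts at 0. MRPS12, MRPL8 and MRPL9 are highest in med7-1002, MRP20 is lowest there, and MRPS17 and MRPL22 are lowest in med10-1002.

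Transcript length moved with the response in med7-1002, among members and among all transcripts. Members of up to 600 nt (17 genes) had a median log2 fold change of 0.97, those of more than 600 and up to 1000 nt (25 genes) of 0.44, and longer ones (20 genes) of 0.18. The medians of all transcripts in the same classes were 0.66, 0.44 and −0.12. In replicate 1, the library with the highest share of reads outside features, the member medians were 1.28, 0.70 and 0.07 above the parent mean. All transcripts had 1.03, 0.60 and −0.22 in that library. In replicate 2 the member medians were 0.41, 0.27 and 0.32, and those of all transcripts 0.07, 0.23 and −0.06. When each library's trend with length was removed, 14 members rose and 2 fell in med7-1002, where 26.8% of all transcripts rose and 23.0% fell, and the median log2 fold change was 0.15. MRPL9 and MRP2 were no longer called then (edgeR adjusted p = 0.0741 and 0.0655), while MRPS12, RSM7, MRPL8, MRPL37, MRPL39, MRP21 and MRP20 were. The part of length in the remaining differences was not tested.

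**Figure D4:**
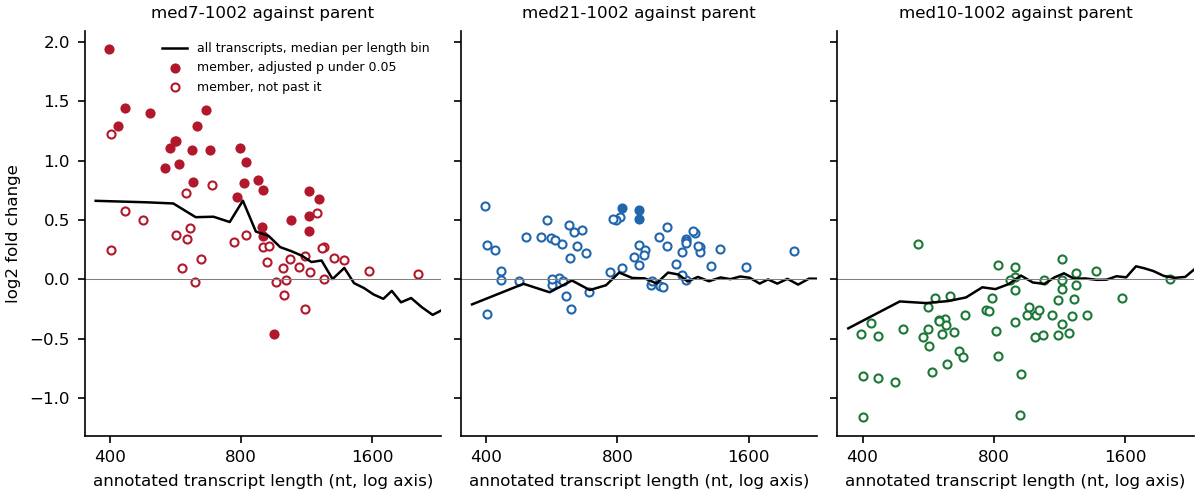
Log2 fold change against parent of each member, by annotated transcript length in nt on a log axis, in med7-1002, med21-1002 and med10-1002; filled points passed an adjusted p of 0.05 and the black line is the median of all transcripts in bins of length. In med7-1002 the shortest members lie highest, as does the line; in med21-1002 most members lie above 0 at all lengths, and in med10-1002 54 of 62 lie below 0.

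In med21-1002, 3 of 62 members rose and none fell against parent, where 3.88% of all tested transcripts rose and 3.92% fell. The 3 are 4.84% of the members, near the share of all transcripts that rose. All 3 were large-subunit genes. MRPL11, of the L10 family at the base of the stalk where translation factors bind, had 51.7 and 54.7 CPM in med21-1002, against 35.3 and 35.6 CPM in parent, and rose by 0.58 ± 0.12 (log2, SE; edgeR adjusted p = 0.0237). MRPL9 had 57.9 and 58.5 CPM in med21-1002, against 40.9 and 41.0 CPM in parent, and rose by 0.51 ± 0.13 (edgeR adjusted p = 0.0444). MRPL8 had 33.6 and 37.8 CPM in med21-1002, against 22.7 and 24.2 CPM in parent, and rose by 0.60 ± 0.15 (edgeR adjusted p = 0.0493). In all 3 the groups stood clear of each other. The calls of all 3 were lost when any single library of med21-1002, med10-1002 or parent was left out. Fewer of all transcripts were called in those fits too.

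The median log2 fold change of the members in med21-1002 was 0.25, with 49 of 62 above 0, against a median of 0.00 for all transcripts. Both med21-1002 libraries lay above both parent libraries for 34 members and below them for 3, where 31.0% of all transcripts lay above and 31.9% below. Replicate 2 of med21-1002 carried more of the difference, with a member median of 0.33 above the parent mean, against 0.09 in replicate 1. Without replicate 2 the median log2 fold change was 0.08. Large-subunit and small-subunit members had medians of 0.22 and 0.28. The median was 0.25 in each length class, from the shortest to the longest, where all transcripts had −0.10, −0.02 and 0.01. The 2 libraries ran in opposite directions over these classes. Member medians were −0.08, 0.08 and 0.19 from the parent mean in replicate 1, and 0.50, 0.37 and 0.26 in replicate 2. All transcripts had −0.25, −0.11 and 0.04 in replicate 1, and 0.06, 0.08 and −0.02 in replicate 2. Cytosolic ribosomal protein genes had the same median of 0.25, and 7 of 135 rose.

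In med10-1002, no member passed the threshold against parent in either direction (edgeR), where 4.93% of all tested transcripts rose and 2.63% fell. At an unadjusted p under 0.05 (edgeR) there were 16 members, all lower, where 1443 of 5746 tested transcripts were past it, 684 of them lower. DESeq2 called 3 members, all lower, where it called 6.11% of all transcripts lower and 10.1% higher. The values nonetheless lay to one side: 54 of 62 log2 fold changes were below 0, with a median of −0.32, against −0.01 for all transcripts. Both med10-1002 libraries lay below both parent libraries for 47 members and above them for 6, where 39.0% of all transcripts lay below and 37.6% above. The medians of the 2 libraries were −0.34 and −0.28 from the parent mean. Cytosolic ribosomal protein genes lay on the other side, with a median log2 fold change of 0.28 and 12 of 135 risen.

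MRPL16, of the L16 family near the peptidyl transferase centre, came nearest to the threshold. It had 29.7 and 31.5 CPM in med10-1002, against 47.5 and 48.1 CPM in parent, a log2 fold change of −0.64 ± 0.17 (edgeR adjusted p = 0.0542). MRPS17, of the S17 family that contacts the small-subunit RNA, had 21.1 and 25.9 CPM in med10-1002, against 48.7 and 54.7 CPM in parent, a log2 fold change of −1.14 ± 0.33 (edgeR adjusted p = 0.0747). In both genes the groups were well apart. MRPL33, of the L30 family, had the lowest fold change, with 2.97 and 3.33 CPM in med10-1002, against 6.96 and 7.17 CPM in parent (log2 −1.16 ± 0.51, edgeR adjusted p = 0.193). MRP17, of the S6 family, had the highest, with 11.0 CPM in both med10-1002 libraries, against 8.93 and 9.04 CPM in parent (log2 0.30 ± 0.23, edgeR adjusted p = 0.473). These 4 were chosen after their values were seen.

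All groups shared 1 estimate of the spread, and the med7-1002 libraries entered it with the widest difference between replicates. Over all transcripts, replicate 1 and replicate 2 differed with an SD of 0.92 (log2) in med7-1002, 0.37 in med21-1002, 0.23 in med10-1002 and 0.27 in parent. With the med7-1002 libraries left out, 20 members fell and none rose in med10-1002, where 16.0% of all transcripts fell and 20.8% rose. In the same fit 12 members rose and none fell in med21-1002, where 14.8% of all transcripts rose and 14.9% fell. The 20 included MRPS17 (adjusted p = 0.000415), MRPL16 (0.00385), MRPL33 (0.00435), MRPL22 (0.018) and MRP51 (0.0354).

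In med10-1002, too, shorter members lay further from parent. The median log2 fold change was −0.46 up to 600 nt, −0.34 above that and up to 1000 nt, and −0.17 beyond, where all transcripts had −0.25, −0.08 and 0.03. With each library's trend with length removed, the median was −0.21 and 4 members fell and none rose, where 5.64% of all transcripts fell and 6.89% rose. The 4 were MRPS17, MRPL16, MRPL17 and MRPL22. Without the med7-1002 libraries and with that trend removed, a fit added after the data were seen, 19 members fell and 1 rose, MRP17, where 20.6% of all transcripts fell and 21.6% rose.

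**Figure D5:**
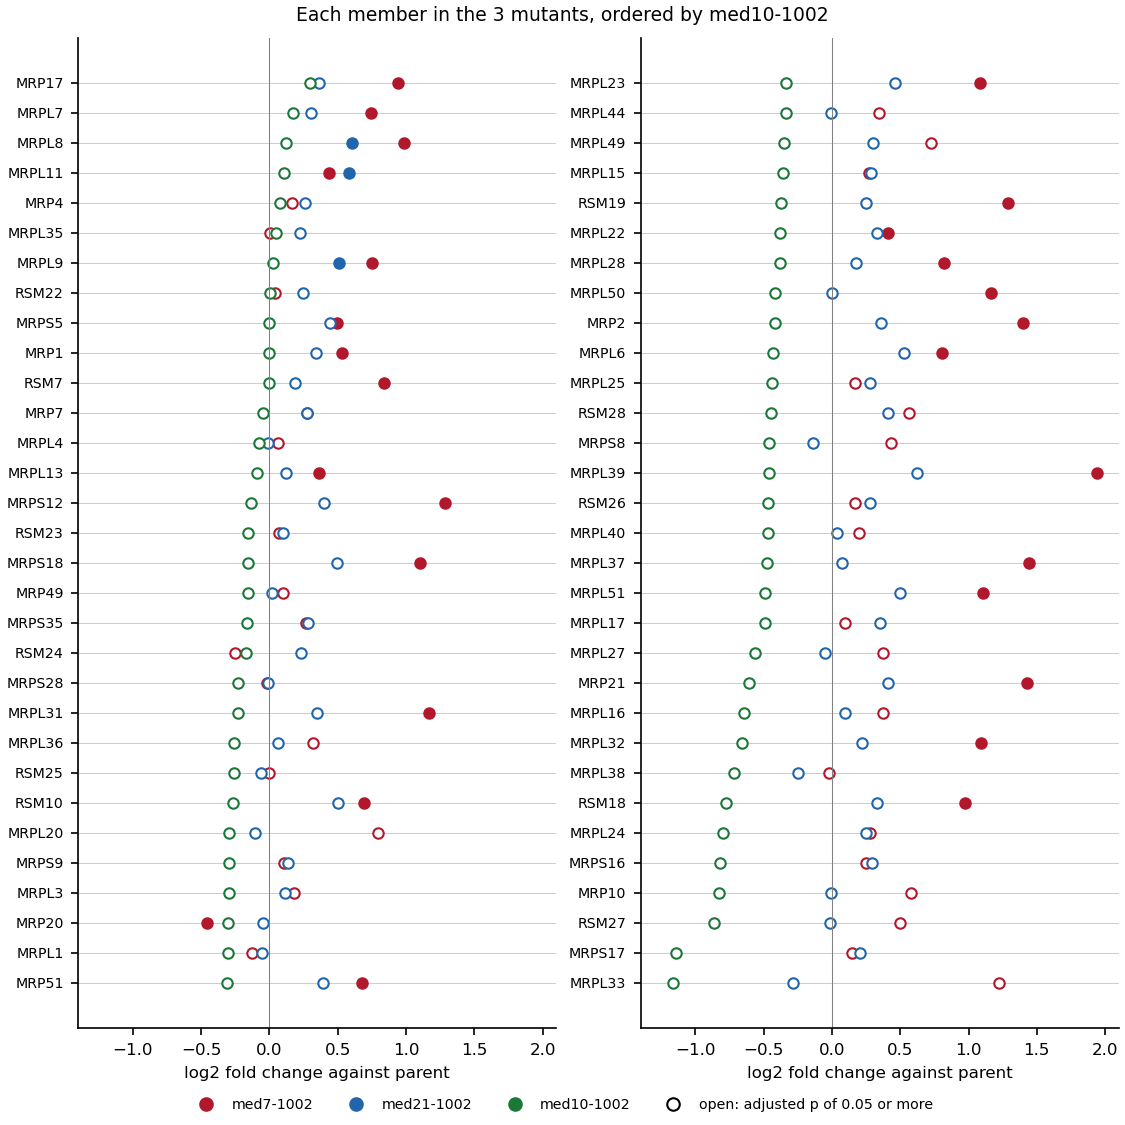
Log2 fold change against parent of each of the 62 members in med7-1002 (red), med21-1002 (blue) and med10-1002 (green), ordered by the value in med10-1002 from highest to lowest; filled points have an adjusted p under 0.05. For every member the med21-1002 point lies to the right of the med10-1002 point, and 28 members have a filled point.

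Between med21-1002 and med10-1002, 17 of 62 members were higher in med21-1002 and none lower, where 9.38% of all tested transcripts were higher and 10.6% lower. This comparison uses the parent and med7-1002 libraries only through the filter, the scaling and the shared estimate of spread. The log2 difference was above 0 for all 62 members, with a range of 0.06 to 1.34 and a median of 0.51. Both med21-1002 libraries lay above both med10-1002 libraries for 56 members and below them for none, where 37.8% of all transcripts lay above and 35.3% below. Cytosolic ribosomal protein genes had a median of −0.05, with none higher and 6 lower.

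MRPL22 had 102 and 124 CPM in med21-1002, against 69.9 and 68.6 CPM in med10-1002, and was higher by 0.71 ± 0.13 (log2, SE; edgeR adjusted p = 0.00689). MRPL17, a large-subunit protein without a bacterial counterpart, had 50.3 and 62.9 CPM in med21-1002, against 31.9 and 31.2 CPM in med10-1002, and was higher by 0.84 ± 0.16 (edgeR adjusted p = 0.00735). MRP51 had 132 and 155 CPM in med21-1002, against 87.1 and 89.8 CPM in med10-1002, and was higher by 0.70 ± 0.14 (edgeR adjusted p = 0.00897). In these 3 genes the med10-1002 libraries nearly coincided and the med21-1002 libraries were spread, with replicate 2 the higher. MRPS17 had 48.8 and 70.6 CPM in med21-1002, against 21.1 and 25.9 CPM in med10-1002, and its log2 difference of 1.34 ± 0.33 was the largest among members (edgeR adjusted p = 0.0251). By subunit, 9 of 35 large-subunit and 8 of 27 small-subunit members were higher in med21-1002, with medians of 0.51 and 0.53. Without the med7-1002 libraries 40 members were higher in med21-1002, and none lower, where 22.4% of all transcripts were higher and 24.9% lower. The calls among members were lost without replicate 2 of med21-1002 and without either replicate of med10-1002. Calls over all transcripts also changed with the library left out. The members' median difference was 0.36 without replicate 2 of med21-1002 and 0.71 without its replicate 1. It was 0.50 without replicate 1 of med10-1002 and 0.52 without its replicate 2. Without a library of parent or med7-1002 it was 0.51 or 0.52. Of the 643 other coding transcripts with the Puf3 letters in their 3′ UTR, 53 were higher (8.24%) and 44 lower (6.84%), with a median difference of 0.12, where 11.2% of coding transcripts without the letters were higher and 9.39% lower.

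Between med7-1002 and med21-1002, 12 members were higher in med7-1002 and 2 lower, where 22.1% of all tested transcripts were higher and 18.6% lower, and the members' median log2 difference was 0.24. With each library's trend with length removed the balance turned, as 1 member was higher and 5 were lower, where 21.2% of all transcripts were higher and 17.6% lower, and the median was −0.09. The 1 higher was MRPL50, and the 5 lower were MRP20, RSM24, MRPL11, MRPL17 and MRPL25. RSM7 had 56.3 and 57.4 CPM in med7-1002, against 34.8 and 37.8 CPM in med21-1002 (log2 0.65 ± 0.13, edgeR adjusted p = 0.00463). MRPS12 had 54.2 and 51.5 CPM in med7-1002, against 23.7 and 33.3 CPM in med21-1002 (log2 0.89 ± 0.20, edgeR adjusted p = 0.00697). MRPL50, of the L9 family, had 38.1 and 22.1 CPM in med7-1002, against 11.7 and 15.2 CPM in med21-1002 (log2 1.16 ± 0.28, edgeR adjusted p = 0.0116). RSM7 and MRPS12 were no longer called with the trend with length removed (adjusted p = 0.165 and 0.222). RSM24, a small-subunit protein without a bacterial counterpart, had 52.0 and 70.3 CPM in med7-1002, against 82.9 and 88.5 CPM in med21-1002 (log2 −0.48 ± 0.15, edgeR adjusted p = 0.0326). MRP20 was the other lower member, with 45.8 and 53.9 CPM in med7-1002, against 68.0 and 65.1 CPM in med21-1002 (log2 −0.42 ± 0.14, edgeR adjusted p = 0.0443). Neither lower call held when only these 2 groups were fitted, with adjusted p of 0.122 for RSM24 and 0.16 for MRP20.

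Between med7-1002 and med10-1002, 47 members were higher in med7-1002 and none lower, where 29.9% of all tested transcripts were higher and 25.0% lower. The median log2 difference was 0.82. With each library's trend with length removed the median was 0.40, and 26 members were higher and 1, MRP20, was lower, where 30.0% of all transcripts were higher and 24.7% lower. MRP51 had 191 and 160 CPM in med7-1002, against 87.1 and 89.8 CPM in med10-1002 (log2 0.99 ± 0.14, edgeR adjusted p = 0.000367). MRPS12 had 54.2 and 51.5 CPM in med7-1002, against 21.8 and 17.5 CPM in med10-1002 (log2 1.43 ± 0.20, edgeR adjusted p = 0.00039). MRP21 had 41.0 and 28.1 CPM in med7-1002, against 8.91 and 7.94 CPM in med10-1002 (log2 2.03 ± 0.29, edgeR adjusted p = 0.00042). In these 3 genes the 2 groups did not overlap, and all 3 kept their call with the trend removed (adjusted p = 0.000319, 0.0178 and 0.000818, by edgeR).

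Other genes of mitochondrial translation were counted from lists grouped by role, in the same contrasts against parent, and their counts stand beside the 25.9% of all tested transcripts that rose and the 22.6% that fell in med7-1002. Of 13 mitochondrial ribosomal proteins named otherwise, 5 rose (38.5%) and none fell in med7-1002, 1 rose in med21-1002 and none passed in med10-1002. Their median log2 fold changes were 0.35, 0.16 and −0.19, in the same order of strains. The 5 were MRX14 (log2 1.87), MNP1 (1.05), MHR1 (0.70), RML2 (0.67) and SWS2 (0.50). RML2, a large-subunit protein of the L2 family, was the 1 that rose in med21-1002 (log2 0.47 ± 0.11, edgeR adjusted p = 0.0352).

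Of 10 genes listed with mitochondrial translation factors, 4 rose (40.0%) and 2 fell (20.0%) in med7-1002. In med21-1002 1 rose, and none passed in med10-1002. TUF1, the mitochondrial elongation factor Tu, had 402 and 441 CPM in med7-1002, 300.1 and 361 CPM in med21-1002, 248 and 244 CPM in med10-1002, and 228 and 234 CPM in parent. It rose in med7-1002 (log2 0.87 ± 0.13, edgeR adjusted p = 0.000732) and in med21-1002 (log2 0.52 ± 0.13, edgeR adjusted p = 0.0477). The others that rose in med7-1002 were PTH2 (log2 0.85), MEF2 (0.62) and MEF1 (0.51), the last an elongation factor G of mitochondria. Those that fell were the release factor gene MRF1 (−0.50) and MTF2 (−1.11), which the list held although it is not itself a translation factor. Of 17 tRNA synthetase and amidotransferase genes, GTF1 rose in med7-1002 (log2 1.44), MSY1 (−0.47) and MSR1 (−0.35) fell there, none passed in med21-1002, and MSW1 rose in med10-1002 (0.61).

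Of 13 genes for activators of single mitochondrial messages, 4 fell (30.8%) and none rose in med7-1002, where 22.6% of all tested transcripts fell. AEP3, which acts on ATP synthase messages, had 57.3 and 47.7 CPM in med7-1002, 110 and 116 CPM in med21-1002, 209 and 227 CPM in med10-1002, and 186 and 178 CPM in parent. It fell in med7-1002 (log2 −1.80 ± 0.13, edgeR adjusted p = 1.87e-05) and in med21-1002 (log2 −0.68 ± 0.13, edgeR adjusted p = 0.0138). The other 3 were CBP1 (log2 −0.83), SOV1 (−0.50) and PET494 (−0.40). Of 13 genes for assembly of the ribosome and modification of its RNA, MAM33 rose in med7-1002 (0.56), and none passed in the other mutants. Of 9 genes for mitochondrial DNA and transcription, 3 rose (33.3%) and 1 fell (11.1%) in med7-1002 and none passed in the other mutants. ABF2, which packages mitochondrial DNA, had 133 and 140 CPM in med7-1002, against 51.9 and 48.4 CPM in parent, and rose by 1.45 ± 0.11 (edgeR adjusted p = 2.29e-05). RIM1, a single-strand DNA-binding protein, and MGM101, a recombination protein, also rose there (log2 1.66 and 1.10), and the helicase gene HMI1 fell (−0.77).

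Among regulators, PUF3 itself had 562 and 499 CPM in med7-1002, 825 and 709 CPM in med21-1002, 663 and 625 CPM in med10-1002, and 799 and 867 CPM in parent. It fell in med7-1002 (log2 −0.65 ± 0.15, edgeR adjusted p = 0.00572) and had log2 fold changes of −0.12 in med21-1002 (edgeR adjusted p = 0.700) and −0.37 in med10-1002 (edgeR adjusted p = 0.153). HAP4, the activating subunit of the Hap complex that drives respiratory genes, had 425 and 720 CPM in med7-1002, 1111 and 1011 CPM in med21-1002, 611 and 584 CPM in med10-1002, and 255 and 269 CPM in parent. It rose in all 3 mutants, by 1.13 in med7-1002, 2.02 in med21-1002 and 1.19 in med10-1002 on the log2 scale, with edgeR adjusted p of 0.00321, 0.00118 and 0.0184. FHL1, a factor at cytosolic ribosomal protein promoters, fell in med7-1002 (log2 −0.88, edgeR adjusted p = 0.000398) and in med10-1002 (log2 −0.53, edgeR adjusted p = 0.0339). The part of these regulators in the members' levels was not tested.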

How the data were processed

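Per the submitters' processing notes, the tools were STAR 2.3.0, SAMtools and HTSeq, with the R64 (sacCer3) genome. The deposited files hold counts of reads per transcript for each of 8 libraries, 2 for each of 4 strains, as the authors made them. The reported CPM, log2 fold changes and tests were computed from those counts. Rows that name no transcript were left out of library sizes. They held 32.7% to 49.5% of a library as reads without a feature.

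Counts were scaled by TMM and tested with edgeR 4.0.16 (R 4.3.3), glmQLFit and glmQLFTest, in 1 fit of all 8 libraries with a term per strain. Transcripts passed filterByExpr with a minimum count of 10, and Benjamini-Hochberg adjustment ran over all transcripts tested, with a threshold of 0.05. The fits were also tested on simulated data with known changes. DESeq2 1.42.0, other scalings, filters and designs were alternatives. The length correction subtracted each library's smooth trend against log2 transcript length. Replicate numbers were not used as pairs in the main fit, as the labels do not say what they share. The correlation of deviations of same-numbered libraries lay between −0.19 and 0.09. With 2 libraries a strain, this cannot show whether such libraries shared a batch. Sequences came from the RefSeq R64 genome at the positions of the deposited annotation, whose transcript ends were matched with RefSeq coding intervals for 4842 of 4928 coding transcripts. Members and gene lists were chosen with earlier results of these data known. Genes were named by smallest adjusted p, largest fold change, opposite direction and highest or lowest level, except where stated.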

Additional observations from a re-analysis of the deposited data

How the results depend on the processing

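Counts of members past the threshold depended on which libraries set the spread, on the scaling and on the length correction. Counts over all tested transcripts changed with these settings too. In med7-1002 against parent, 28 members passed, and 16 with the length correction. Of all 5746 tested transcripts, 1489 rose and 1301 fell in the main fit, and 1540 rose and 1324 fell with the length correction. In med21-1002 against parent, 3 passed, 6 with only these 2 groups, 12 without the med7-1002 libraries, 19 when the length correction was added to that, and 1 with the length correction alone. Among all transcripts, 223 rose and 225 fell in the main fit, and 597 and 616 with only these 2 groups. Without the med7-1002 libraries 844 rose and 850 fell, and 1029 and 960 with the length correction added. With the length correction alone 386 rose and 342 fell. In med10-1002 against parent, 0 passed, 32 with only these 2 groups, 20 without the med7-1002 libraries, 20 when the length correction was added to that, 4 with the length correction alone and 3 by DESeq2. Among all transcripts, 283 rose and 151 fell in the main fit, and 1510 and 1487 with only these 2 groups. Without the med7-1002 libraries 1188 rose and 914 fell, and 1232 and 1176 with the length correction added. The length correction alone gave 396 and 324, and DESeq2 gave 552 and 334. Between med21-1002 and med10-1002, 17 passed, 7 with library size alone, 10 with upper-quartile scaling, 36 with only these 2 groups, 40 without the med7-1002 libraries, 41 when the length correction was added to that, and 27 by DESeq2. Among all transcripts, 539 were higher and 611 lower in the main fit, 482 and 671 with library size alone, and 468 and 743 with upper-quartile scaling. With only these 2 groups 1094 were higher and 1285 lower, and 742 and 793 by DESeq2. Without the med7-1002 libraries 1278 were higher and 1422 lower, and 1565 and 1441 with the length correction added. Between med7-1002 and med21-1002, 14 passed, 6 with library size alone, 8 with upper-quartile scaling, 4 with only these 2 groups and 6 with the length correction. The main 14 were 12 higher in med7-1002 and 2 lower, the 6 with the length correction were 1 higher and 5 lower, 3 members were in both, and the median turned from 0.24 to −0.09. Among all transcripts, 1269 were higher and 1069 lower in the main fit, 1079 and 1518 with library size alone, and 1188 and 1407 with upper-quartile scaling. With only these 2 groups 796 were higher and 526 lower, and 1219 and 1010 with the length correction. Between med7-1002 and med10-1002, 47 passed, 31 with library size alone, 29 with only these 2 groups and 27 with the length correction, where 26 were higher and 1 lower and the median was 0.40 in place of 0.82. Among all transcripts, 1718 were higher and 1436 lower in the main fit, and 1467 and 1822 with library size alone. With only these 2 groups 1248 were higher and 1072 lower, and 1724 and 1418 with the length correction. The members' median log2 fold change in med7-1002 was 0.44 and 0.15 with the length correction, and in med10-1002 it was −0.32 and −0.21 with the length correction, with or without the med7-1002 libraries. Leaving out 1 library at a time gave 8 to 44 members in med7-1002 against parent (8 without parent replicate 2, 15 without parent replicate 1, 44 without med7-1002 replicate 2), 0 to 15 in med21-1002, 0 to 22 in med10-1002, 0 to 42 between med21-1002 and med10-1002, 1 to 34 between med7-1002 and med21-1002 and 21 to 49 between med7-1002 and med10-1002. The median of med7-1002 then ranged between 0.32 and 0.62, that of med21-1002 between 0.08 and 0.33, and that of med10-1002 between −0.34 and −0.28. Calls over all transcripts also changed with the library left out. A lone library in such a fit is assumed to vary like the other groups. The member counts from these fits were not set against a share of all transcripts. They therefore do not set members apart from other transcripts. Replicate numbers share nothing the labels name. With the replicate number as a block, 24 members passed in med7-1002, 0 in med21-1002, 0 in med10-1002 and 7 between med21-1002 and med10-1002. Of 357 alternative values for the 23 results on named members, 292 kept their call, 65 lost it and 0 reversed. The cause of these changes was not tested, and some of the fits held fewer libraries. At this depth 6 members had fewer than 100 reads in some library.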
